A study of Mus musculus with 2 samples.

Results

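Lysosomes are the acid compartments in which cells break down proteins, lipids and sugars, and 3 gene families carry much of their work. The vacuolar proton pump (V-ATPase) has a cytosolic V1 sector, which splits ATP and turns a central stalk, and a membrane V0 sector, whose rotating ring carries protons into the lumen. The cathepsins are proteases, most of which work in that acid lumen, and the lysosome-associated membrane proteins (LAMPs) line the inner face of the lysosomal membrane. In neurons the pump also acidifies synaptic vesicles, where its proton gradient drives the loading of neurotransmitters.

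The members were chosen by symbol alone, with no measured value: protein-coding genes of the GENCODE M21 annotation whose symbols begin with Atp6v, Atp6ap or Lamp and a number, or consist of Cts, a letter and optional digits. The rule found 48 genes of the 55536 genes in the table, of which 22028 are protein coding. They comprise 25 genes of the proton pump, 18 cathepsins, 4 LAMPs and Atp6v1fnb, a gene named as a neighbour of Atp6v1f that encodes no pump subunit. The data are polyA RNA-seq of the whole forebrain of 2 newborn mice (postnatal day 0) of strain B6NCrl, named pup 1 and pup 3 in the labels, with 1 forebrain and 1 library per pup; the labels give both the same donor identifier. Neither pup carried a labelled allele or treatment, their sex was not recorded, and each library was made from 10 ng of RNA. There was 1 group, so members were compared with each other and the distance between the pups was described, with no test. Values are TPM (transcript abundance scaled to library size and transcript length), and errors are the SD between the pups (n = 2).

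The libraries held 40964891 and 41230878 expected counts, the authors' estimates of reads per gene. Neuron markers, led by Tubb3, Gap43, Stmn2 and Mapt, had a summed level of 6468 TPM in pup 1 and 5249 TPM in pup 3 over 8 genes. The 10 microglia markers summed to 254 and 256 TPM, and the 6 markers of fibroblasts and meninges to 176 and 189 TPM. All 3 lists were detected in full, so the tissue held several cell types, and in such bulk RNA fewer cells of a type and less RNA per cell cannot be told apart.

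Detection was set at 1 TPM, to be reached in both pups. By that measure 35 of the 48 members were detected (72.9%), beside 59.5% of all protein-coding genes. The 13 that were not comprise 5 pump genes, 6 cathepsins, Lamp3 and Atp6v1fnb (0.35 and 0.12 TPM). The median level was 115 ± 16.4 TPM over all 25 pump genes, 11.2 ± 1.56 TPM over all 18 cathepsins and 26.8 ± 1.75 TPM over all 4 LAMPs, and 3.77 ± 0.788 TPM over all protein-coding genes. The pump genes summed to 5256 TPM in pup 1 and 4888 TPM in pup 3, the cathepsins to 1037 and 955 TPM, and the LAMPs to 364 and 334 TPM.

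In the V1 sector, every subunit from A to H had at least 1 gene at a high level. Atp6v1a, which encodes the catalytic subunit A, gave 123 TPM in pup 1 against 105 TPM in pup 3. Atp6v1b2, for the nucleotide-binding partner subunit B, stood at 231 and 170.1 TPM. Atp6v1c1, for subunit C, which links the stalks of the 2 sectors, was at 125 and 90.9 TPM. By TPM all 3 genes were lower in pup 3, a direction that depends on the scaling (below), and the order of Atp6v1a and Atp6v1c1 differed between the pups.

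The leading genes of the stalk subunits E, F and G were above Atp6v1a in both pups. Atp6v1g1, for the peripheral stalk subunit G, reached 321 and 351 TPM, and Atp6v1f, for the central stalk subunit F, 299 and 345 TPM. Atp6v1e1, for the peripheral stalk subunit E, stood at 258 and 265 TPM. Atp6v1h, for the regulatory subunit H, followed at 224 and 218 TPM, below Atp6v1b2 in pup 1 and above it in pup 3. Atp6v1d, for the central stalk subunit D, gave 134 and 154 TPM, but more of that level lay on a non-coding transcript than on its coding one (below). Atp6v1g1 was above Atp6v1f in both pups, though their ranges overlapped.

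In the V0 sector Atp6v0c, which encodes the proteolipid subunit c present in many copies in the rotating ring, was the highest of the 48 members with 1658 TPM (pup 1) and 1503 TPM (pup 3). It ranked 41 among all protein-coding genes by mean level. Atp6v0b, for the ring subunit c'' that occurs once per ring, stood at 495 and 498 TPM. The ratio of Atp6v0c to Atp6v0b was 1.67 ± 0.11 on the log2 scale, or 3.18-fold. A processed pseudogene of Atp6v0c (Atp6v0c-ps2) was assigned 353 and 348 expected counts, beside 46728 and 47721 for the gene itself, and reads of the 2 cannot be separated with certainty.

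Atp6v0d1, for subunit d at the joint of the ring and the stalk, stood at 227 and 199 TPM. Atp6v0a1, for the a subunit that forms the proton half-channels and is the form known from synaptic vesicles and neurons, gave 134 TPM in pup 1 against 96.1 TPM in pup 3. Of the accessory proteins, Atp6ap1, which helps the V0 sector assemble, was at 263 and 207 TPM, and Atp6ap2, known as the (pro)renin receptor, at 189 and 152 TPM. Both are X-linked, as is Lamp2. Atp6ap1l, a shorter relative of Atp6ap1, was low at 6.08 and 7.93 TPM.

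**Figure D1:**
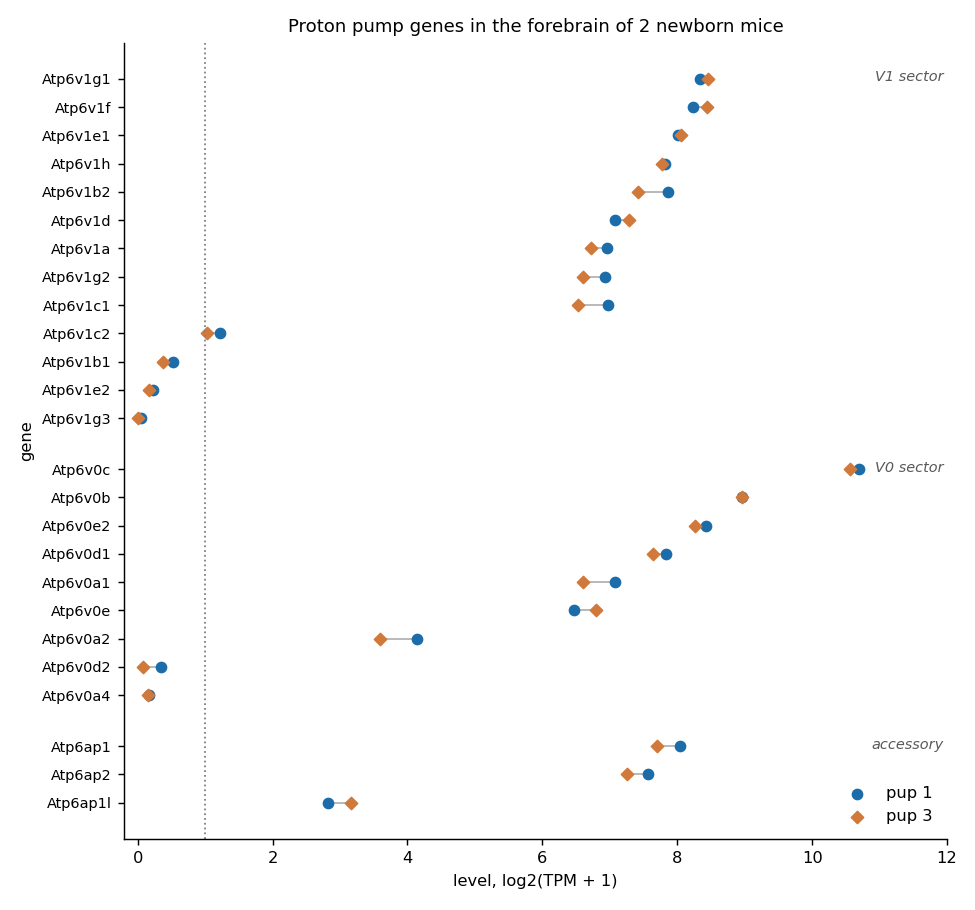
Level of each of the 25 proton pump genes as log2(TPM + 1), with a circle for pup 1 and a diamond for pup 3; the dotted line marks 1 TPM, the level for detection. Atp6v0c stands apart at the top (1658 and 1503 TPM), and 5 genes lie below the line in both pups.

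Subunits B, C, E, G, a, d and e are each encoded by several of the members, which lets the share of each paralog in the subunit's summed TPM be set out. In 4 of these 7 subunits 1 gene held at least 90% in both pups. Atp6v1b2 held 99.8% of subunit B, Atp6v1c1 98.9% of C, Atp6v1e1 99.9% of E and Atp6v0d1 99.9% of d. Their partners are genes best known from other tissues. Atp6v1b1, known from kidney intercalated cells and the inner ear, was at 0.44 and 0.30 TPM, and Atp6v1e2, known from the testis, at 0.17 and 0.12 TPM. Atp6v0d2, known from osteoclasts and kidney, was at 0.27 and 0.06 TPM, while Atp6v1c2 passed the detection level narrowly at 1.34 and 1.03 TPM. Atp6v1c2 shares 50 exonic bases with Pdia6, a gene on the other strand at 185 and 197 TPM, and a part of its reads there was not tested.

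The 5 pump genes under the detection level also include Atp6v0a4 and Atp6v1g3, both known from kidney. Atp6v0a4 was at 0.12 and 0.11 TPM, and Atp6v1g3 at 0.04 TPM in pup 1 with 0 counts in pup 3. For Atp6v1g3 a count of 0 allows up to 0.057 TPM, taking 3 counts as the limit and counting error alone. Of the 6 kidney intercalated cell markers 1 was detected, Slc26a7 at 2.50 and 2.13 TPM, and Foxi1, the factor that defines those cells, was at 0.02 and 0 TPM. Of 6 osteoclast markers 2 were detected, Mmp9 (6.87 and 4.21 TPM) and Calcr (2.76 and 1.15 TPM), while Dcstamp and Ocstamp stood at 0.04 TPM or less in both pups.

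In subunits G, e and a a second paralog took more than 10% of the summed TPM. Subunit G was shared between Atp6v1g1, at 75.6 ± 4.07% of the summed TPM, and Atp6v1g2, a form known from neurons, at 24.4 ± 4.06%. Atp6v1g2 gave 120.3 TPM in pup 1 against 96.3 TPM in pup 3. In subunit e, Atp6v0e2 (342 and 305 TPM), known from brain, held 76.5 ± 4.33%, and the widely expressed Atp6v0e (87.8 and 110.4 TPM) held 23.5 ± 4.33%. By expected counts, with no correction for length, Atp6v0e held 10.0% and 13.5%, and Atp6v1g2 33.7% and 27.2%. Within each pair the balance differed between the pups: the log2 ratio of Atp6v1g1 to Atp6v1g2 was 1.42 in pup 1 against 1.87 in pup 3, and that of Atp6v0e2 to Atp6v0e was 1.96 against 1.47.

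Subunit a lay just under the 90% level. Atp6v0a1 held 88.9% in pup 1 and 89.6% in pup 3, and Atp6v0a2, known from the Golgi and endosomes, 11.0% and 10.3%, at 16.6 and 11.0 TPM. By expected counts the shares were 90.8% and 90.3% for Atp6v0a1 and 9.12% and 9.64% for Atp6v0a2. On coding transcripts alone they were 94.4% and 93.7%, and 5.56% and 6.30%. The a3 gene, Tcirg1, does not match the naming rule and stood at 7.70 and 7.85 TPM. With it included, Atp6v0a1 held 84.6% and 83.5%. The paralogs were between 63.0% and 76.5% identical over their aligned coding bases, counting Atp6ap1 and Atp6ap1l, and no pair shared a stretch of 50 bases.

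**Figure D2:**
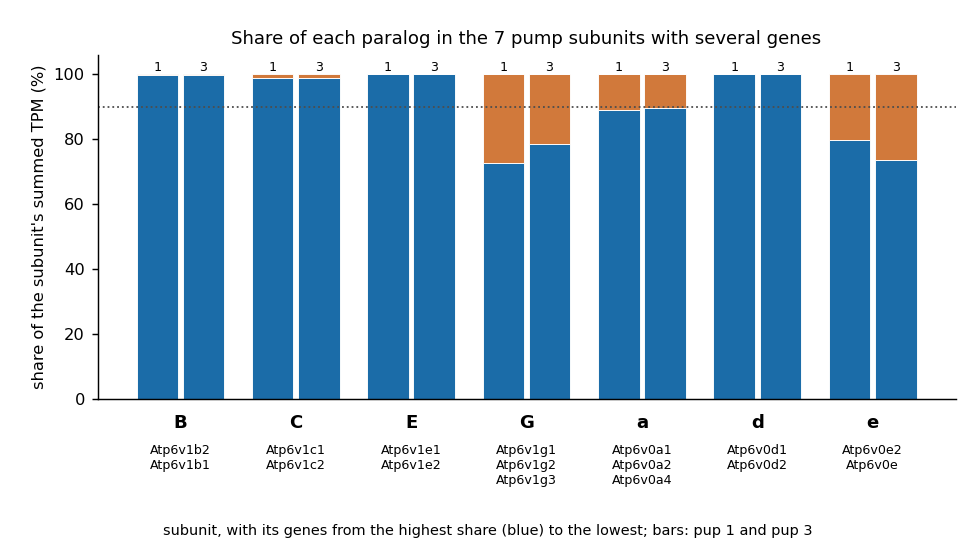
Share of the summed TPM of each subunit held by each of its genes, in percent, with 1 bar per pup for the 7 subunits that have several genes among the members; the dotted line marks 90%. Subunits B, C, E and d are filled by 1 gene, a lies just under the line, and G and e are divided.

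The subunits were not at equal summed levels. Summed over paralogs, subunit C reached 109 ± 24.3 TPM, A 114 ± 13.2 TPM, a 129 ± 30.7 TPM and D 144 ± 14.5 TPM, but C and A, and a and D, changed order between the pups. B stood at 201 ± 43.3 TPM, d at 214 ± 20.1 TPM, H at 221 ± 3.83 TPM and E at 262 ± 5.03 TPM. F followed at 322 ± 32.5 TPM, e at 423 ± 9.81 TPM, G at 444 ± 4.37 TPM and b at 496 ± 2.04 TPM, below subunit c. On coding transcripts alone D had the lowest of these values, at 56.2 ± 0.13 TPM, and C, A and a the next lowest.

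Of the cathepsins, 12 of 18 were detected, with means from 1.95 TPM for Ctsw to 312 TPM for Ctsb. Ctsb, a cysteine protease that also trims peptides from their ends, gave 318 TPM in pup 1 against 307 TPM in pup 3, mostly on a non-coding transcript (below). Ctsd, the main aspartic protease of the lysosome, was at 280 and 249 TPM, under Ctsb in both pups for the gene as a whole. Ctsl, a cysteine endopeptidase, followed at 151 and 128 TPM. The step from Ctsd to Ctsl was 0.93 ± 0.050 on the log2 scale, larger than the spread between the pups.

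Ctsa, a serine carboxypeptidase that also protects the enzymes beta-galactosidase and neuraminidase, was at 78.7 and 66.4 TPM. The cysteine proteases Ctsf (65.6 and 59.4 TPM) and Ctsz (61.7 and 57.5 TPM) came next. By gene TPM Ctsf was above Ctsz in both pups, though their ranges overlapped and the order turned on coding transcripts alone (below). Ctsh, an aminopeptidase, gave 29.6 TPM in pup 1 against 38.0 TPM in pup 3. Ctss, a protease of antigen-presenting cells and microglia, was at 19.1 and 20.2 TPM. High microglia markers were C1qb (55.7 and 62.2 TPM), Tyrobp (36.6 and 41.7 TPM) and C1qc (38.1 and 39.2 TPM). Ctsc, which activates granule proteases (13.3 and 10.8 TPM), and Ctso (11.3 and 9.36 TPM) overlapped in range, with Ctsc above in both pups.

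Ctsk, the collagen-degrading protease of osteoclasts, lies 17.4 kb from Ctss on chromosome 3 and was at 7.10 and 8.01 TPM. Ctss exceeded it by 1.38 ± 0.063 on the log2 scale. Of the osteoclast list, Acp5 was at 0.34 and 0.70 TPM; the fibroblast list was led by Dcn (42.1 and 68.3 TPM), Col3a1 (46.6 and 44.6 TPM), Col1a2 (35.7 and 31.5 TPM) and Col1a1 (35.8 and 26.4 TPM). Ctsw, a protease of cytotoxic lymphocytes, was at 1.90 and 2.00 TPM, although none of the 7 T and NK cell markers was detected and their sum was 0.33 and 0.24 TPM. Ctsw shares 9 exonic bases with Fibp, a gene on the other strand at 144 and 143 TPM, and a part of its reads in that overlap was not tested.

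The 6 cathepsins below the detection level include 4 with no read assigned in either pup: Ctsj, Ctsq, Ctsr and Ctsm. They are rodent genes known from the placenta and lie near each other on chromosome 13. The gaps from 1 member to the next were 29.1, 119 and 371 kb, with Ctsl 2817 kb further on. Genes outside the naming rule that lie in these gaps were not counted. A count of 0 allows up to 0.12 TPM for Ctsj and up to 0.087 TPM for Ctsr in pup 1. The 7 trophoblast markers summed to 0 and 0.06 TPM. Ctse, an aspartic protease known from stomach and immune cells, was at 0.07 and 0.04 TPM. Ctsg, a serine protease of neutrophil granules, rested on 5 counts in pup 1 and 1 in pup 3.

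For Ctsg the granule markers give the background. Of the 8 neutrophil genes 4 were detected, and the list summed to 21.4 TPM in pup 1 against 36.3 TPM in pup 3. Prtn3 was at 12.7 and 11.8 TPM and Ngp at 1.13 and 2.30 TPM, with S100a8 at 3.56 and 11.1 TPM and S100a9 at 2.97 and 9.12 TPM, both over 2-fold higher in pup 3. Elane, which is packed in the same granules as Ctsg, was at 0 and 0.12 TPM and Mpo at 0.09 and 0.17 TPM. The part of blood cells in these values was not tested.

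**Figure D3:**
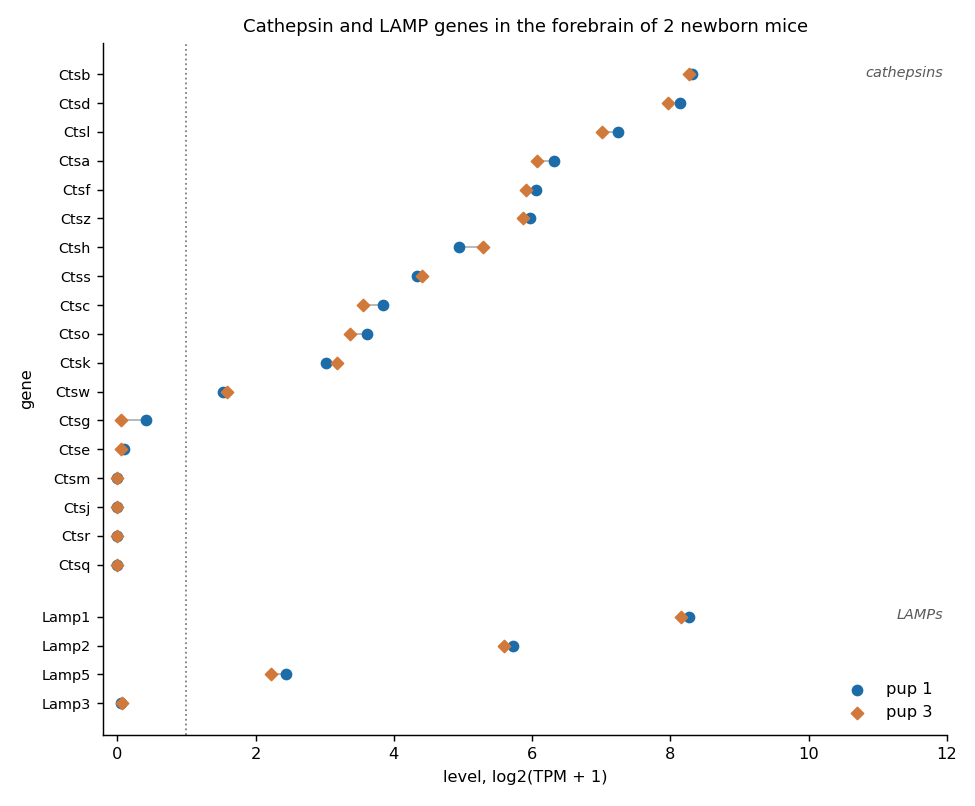
Level of each of the 18 cathepsins and 4 LAMPs as log2(TPM + 1), with a circle for pup 1 and a diamond for pup 3; the dotted line marks 1 TPM. Ctsb, Ctsd and Lamp1 stand near 8 on this scale, while 6 cathepsins and Lamp3 lie below the line in both pups.

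Lamp1 and Lamp2, the abundant glycoproteins of the lysosomal membrane, differed in level. Lamp1 gave 308 TPM in pup 1 against 283 TPM in pup 3, and Lamp2 gave 51.6 and 47.4 TPM. The difference was 2.58 ± 0.0013 on the log2 scale, or 5.97-fold, nearly the same in both pups. Lamp5, the form known from neurons, was at 4.41 and 3.69 TPM, and about as much of it lay on non-coding as on coding transcripts (53.3% and 54.1% non-coding). Lamp3, known from maturing dendritic cells and lung, rested on 3 and 4 counts at 0.04 and 0.05 TPM.

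Lamp2 makes 3 proteins that share the lumenal part and differ in the transmembrane stretch and cytosolic tail, because the gene carries alternative last coding exons. LAMP-2A is known as the receptor of chaperone-mediated autophagy and LAMP-2C for binding RNA and DNA. The 3 GENCODE M21 transcripts share 1109 coding bases and then part, so the bases after that point are what tells the forms apart. They are shown as read on the minus strand of chromosome X in mm10, 5′ to 3′ and without the stop codon, with the last 12 bases in capitals. Those capitals encode the end of the tail, where LAMPs carry a tyrosine-based signal for sorting to lysosomes. The coordinates are chrX:38405435-38405570 for form A, chrX:38421715-38421850 for form B and chrX:38402142-38402280 for form C.
Lamp2 form A: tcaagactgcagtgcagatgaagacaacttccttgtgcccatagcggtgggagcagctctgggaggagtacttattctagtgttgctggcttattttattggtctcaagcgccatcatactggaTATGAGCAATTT
Lamp2 form B: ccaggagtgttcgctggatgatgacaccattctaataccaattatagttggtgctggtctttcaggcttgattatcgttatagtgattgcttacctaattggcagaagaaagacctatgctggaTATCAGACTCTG
Lamp2 form C: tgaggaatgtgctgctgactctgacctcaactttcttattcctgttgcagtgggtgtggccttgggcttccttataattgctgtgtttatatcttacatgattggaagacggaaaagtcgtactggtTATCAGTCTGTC

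Form A held 49.99% of the gene's TPM in pup 1 and 50.6% in pup 3, form B 38.7% and 41.5%, and form C 9.43% and 7.36%. Their levels were 25.8 and 24.0 TPM for A, 20.0 and 19.7 TPM for B and 4.87 and 3.49 TPM for C. By expected counts the order of A and B was the other way round, with 34.2% in both pups for A and 55.7% and 58.9% for B. The transcript of form B is 3604 bases long and that of form A 1769 bases, so the order of these forms depends on the correction for length. Form C was the lowest on both scales.

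Transcript estimates were set out for the 32 members that reached 5 TPM in both pups. The leading transcript was the same in both pups for 32 of 32, and in 16 a single transcript held at least 90% of the gene's TPM. For these counts, and that of members with a large non-coding share (below), the share over all genes was not computed. Apart from Lamp2, 2 coding forms with at least 20% each were present in Atp6v1a, Atp6v1h and Ctsd. Atp6v1a-202 (52.0% and 54.5%) and Atp6v1a-201 (34.0% and 30.4%) have the same coding sequence and differ outside it.

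For Atp6v1h, Atp6v0a1 and Ctsd the leading coding forms differ by a short run of coding bases within the gene. These runs are shown in capitals as the coding strand reads them, with 20 spliced coding bases on each side in lower case. The capitals cover chr1:5101070-5101123 on the plus strand for Atp6v1h, chr11:101049459-101049476 on the plus strand for Atp6v0a1 and chr7:142377333-142377350 on the minus strand for Ctsd, all in mm10.
Atp6v1h-201: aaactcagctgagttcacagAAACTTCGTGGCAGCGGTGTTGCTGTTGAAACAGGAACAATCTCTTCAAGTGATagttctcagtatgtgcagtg
Atp6v0a1-201: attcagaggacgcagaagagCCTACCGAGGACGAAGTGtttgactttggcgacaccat
Ctsd-202: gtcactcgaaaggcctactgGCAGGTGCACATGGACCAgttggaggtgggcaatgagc

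The form without the 54 bases led in Atp6v1h: Atp6v1h-204 held 64.6% and 63.2% of TPM and Atp6v1h-201, with them, 30.5% and 31.9%. In Atp6v0a1 the form with the 18 bases led, with 81.9% and 81.6% for Atp6v0a1-201 against 8.68% and 10.0% for Atp6v0a1-202. Ctsd-202, with its own 18 bases, held 73.2% and 73.6% and Ctsd-201, without them, 26.7% and 26.3%. In these 3 genes the share of the leading form differed by less than 2 percentage points between the pups.

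In 5 of the 32 members, over 20% of the TPM lay in both pups on transcripts annotated as other than protein coding (retained intron, processed transcript or nonsense-mediated decay), called non-coding here: Ctsb, Atp6v1d, Atp6v0a2, Ctsh and Ctsf. The retained-intron transcript Ctsb-202, 801 bases long, held 60.7% and 61.4% of the gene's TPM but 19.1% and 19.5% of its counts. On coding transcripts alone Ctsb stood at 120 ± 4.02 TPM and Ctsd at 264 ± 21.7 TPM, so their order turned. On that scale Ctsb (123 and 117 TPM) was also below Ctsl (148 and 126 TPM) in both pups. In the tables made with the older GENCODE M4 annotation Ctsb was likewise below Ctsd, at 156 TPM against 280.0 TPM, but above Ctsl at 114 TPM. Ctsb also shares 774 exonic bases, 12.8% of its own, with Fdft1 on the other strand, which was at 166 and 167 TPM. Its level is therefore less certain than its count of 18525 and 19964 reads would give. Opposite-strand overlaps also touch Ctsa (495 bases with Pltp, at 66.7 and 54.0 TPM) and Lamp1 (249 bases with Grtp1, at 14.2 and 18.0 TPM).

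Atp6v1d followed the same pattern. Its retained-intron transcript Atp6v1d-202, 775 bases long, held 56.1% and 62.4% of TPM and 20.1% and 24.4% of counts, and the coding transcript stood at 56.1 and 56.3 TPM. In the M4 tables the gene was at 206 TPM rather than 144 TPM. For Ctsh the transcript Ctsh-202, annotated for nonsense-mediated decay, held 47.8% and 54.4% of TPM, and coding transcripts, led by Ctsh-204 (23.3% and 24.8%), summed to 15.0 and 16.8 TPM. Atp6v0a2-204, a retained intron, held 44.2% and 35.4% of TPM. All non-coding transcripts of Atp6v0a2 together held 54.8% and 44.7%, and its coding transcript stood at 7.53 and 6.10 TPM. For Ctsf the non-coding share was 25.0% and 21.1%. Its coding transcripts summed to 49.2 and 46.8 TPM, below Ctsz at 61.7 and 57.5 TPM, so the order of these genes turned. With the M4 tables Ctsf (53.7 and 52.4 TPM) was likewise below Ctsz (64.8 and 60.1 TPM).

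**Figure D4:**
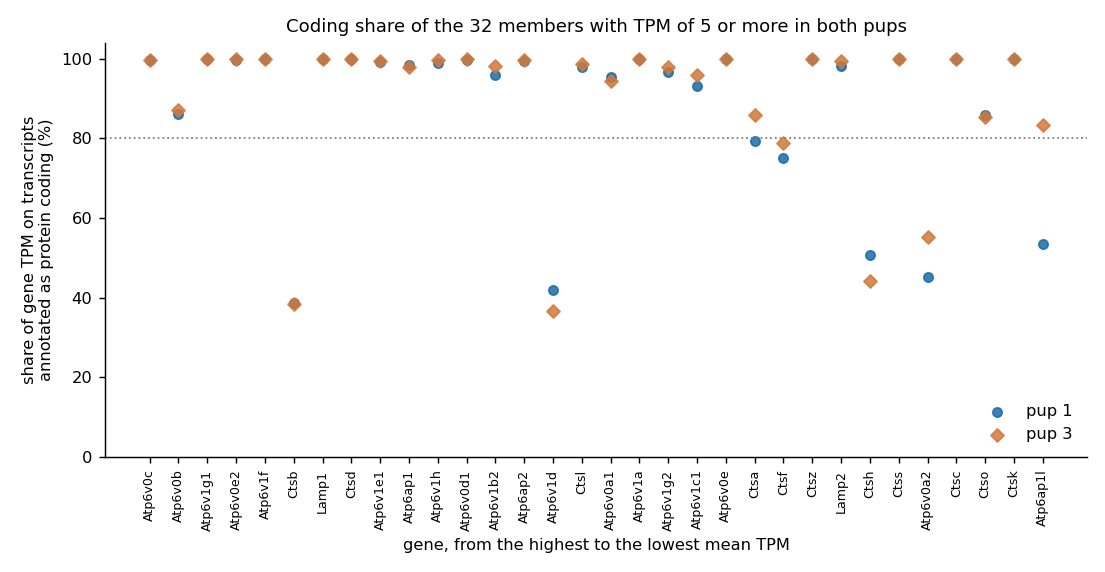
Share of each gene's TPM on transcripts annotated as protein coding, in percent, for the 32 members that reached 5 TPM in both pups, ordered by mean level, with circles for pup 1 and diamonds for pup 3; the dotted line marks 80%. Ctsb, Atp6v1d, Ctsh, Atp6v0a2 and Ctsf lie below the line in both pups, and Atp6ap1l differs most between the pups.

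Between the pups, 0 of the 32 members that reached 5 TPM in either pup differed by over 2-fold in TPM + 1, where 2.5% of all 11477 such genes did. With a threshold of 1.5-fold the members' count by gene TPM was also 0, beside 14.5% of all genes, but other scales gave some. Counts scaled by edgeR's TMM method put Atp6v0e (0.64 on the log2 scale), Atp6ap1l (0.64) and Ctsh (0.62) past 1.5-fold, all 3 higher in pup 3, beside 7.17% of all genes. Coding transcripts alone put Atp6ap1l past it, at 3.25 TPM in pup 1 against 6.60 TPM in pup 3 (0.84). The log2 ratio of pup 3 to pup 1, with 1 TPM added to each, ran from -0.55 for Atp6v0a2 (16.6 and 11.0 TPM) to 0.35 for Ctsh (29.6 and 38.0 TPM). Both of these genes carry a large non-coding share, and on coding transcripts alone their ratios were -0.26 and 0.15, while the range ran from -0.49 for Atp6v0a1 to 0.84 for Atp6ap1l. By gene TPM the SD of the ratio over the 35 detected members was 0.23, against 0.32 over protein-coding genes with a mean TPM of at least 1. The 2 sets were not matched for level: the median was 114 TPM over detected members and 17.1 TPM over detected protein-coding genes.

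The median ratio of the detected members was -0.14, and that of all genes with a mean TPM of at least 1 was -0.24, so the members lay 0.10 above the median gene. That distance was 0.024 with posterior mean TPM and -0.014 when members and genes with any count were all included. By TPM, 24 of the 35 members (68.6%) were lower in pup 3. The share was 81.9% over protein-coding genes with a mean TPM of at least 1. The direction of single members rests on the scaling: with CPM (counts scaled to library size, not length) adjusted by edgeR's TMM method, 8 of the 35 were lower in pup 3, and 19 kept the sign they had by TPM. On that scale the median of all genes was itself 0.04 and that of the members 0.19, so the members lay 0.15 above the median gene. The share of all genes lower in pup 3 on that scale was not counted. The neuron markers had a median ratio of -0.44 and the microglia markers of -0.04 by TPM, and their part in the members' values was not tested.

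The difference between the pups went with gene length. Across the 35 members Spearman's rho between length and log2 ratio was -0.71, and across 13474 protein-coding genes it was -0.50. These values describe genes that share the same pair of libraries, and genes are not replicates. The 12 members under 1500 bases had a median ratio of 0.06 and the 23 longer ones of -0.23, beside -0.01 and -0.30 for protein-coding genes of those lengths. Of the 3 shortest members, Atp6v1f (703 bases) had a ratio of 0.21, Atp6v0e (827 bases) of 0.33 and Atp6v0b (929 bases) of 0.01. Of the 3 longest, Atp6v0a1 (3779 bases) had -0.47, Atp6v1a (3604 bases) -0.23, near the median of all genes, and Atp6v0a2 (3297 bases) -0.55.

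Set against the median of protein-coding genes of like length, in 10 bins, the members lay 0.04 higher in the median. Ctsh (0.41) and Atp6v1d (0.41) then stood highest and Atp6v1c1 (-0.25) and Atp6v0a2 (-0.20) lowest. Ctsh, Atp6v1d and Atp6v0a2 are among the genes with a large non-coding share. On coding transcripts alone Atp6v1d stood at 56.1 and 56.3 TPM, so the pups then barely differed. In the pairs of G and e the gene with the larger share in pup 3 than in pup 1 was the shorter: Atp6v1g1 (1135 bases) and Atp6v0e (827 bases) are shorter than Atp6v1g2 (1507 bases) and Atp6v0e2 (1781 bases), and the part of length in their shifted shares was not tested.

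**Figure D5:**
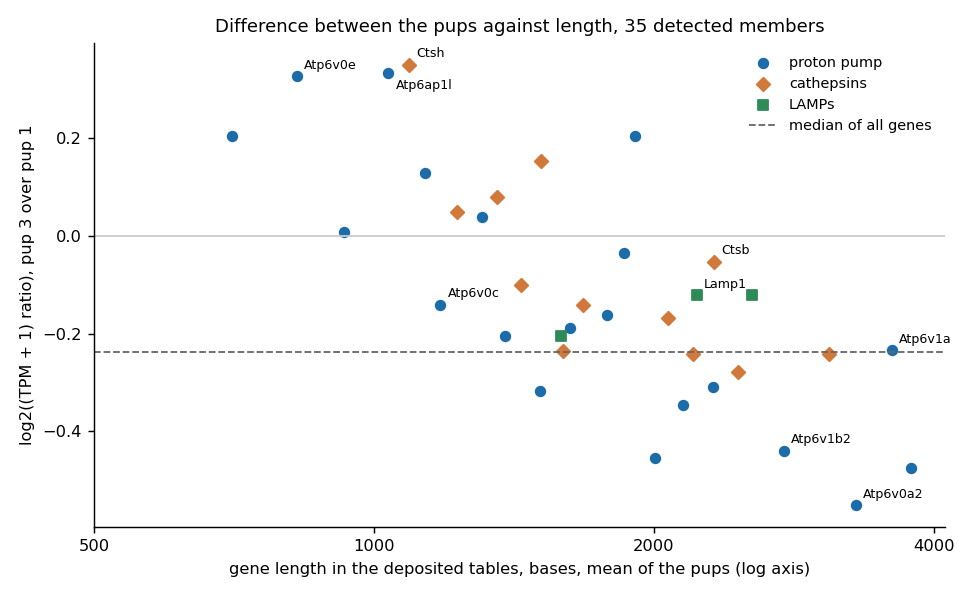
Log2 ratio of TPM + 1 in pup 3 over pup 1 against gene length in bases (log axis) for the 35 detected members, with circles for the pump, diamonds for cathepsins and squares for LAMPs; the dashed line is the median of all genes at -0.24. Short members lie mostly above the line, and long ones nearer to it or below it (Spearman's rho -0.71 across genes).

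Many lysosomal genes are known to carry the letters CACGTG near their start, which transcription factors of the TFEB family bind as part of a longer motif. This was searched in RefSeq promoter windows of build GRCm38.p6, from 250 bases before to 50 after the start, which matched 37 of the 48 members. Those without a window, which were not searched, were Atp6ap1l, Atp6v0a2, Atp6v0d2, Atp6v1b2, Atp6v1c1, Atp6v1g1, Atp6v1h, Ctsb, Ctse, Ctsh and Ctsw. CACGTG reads the same on both strands, and every match to the longer TCACGTGA contains it. CACGTG stood in the window of 9 of the 37 member genes (24.3%), against 8.91% of 17491 protein-coding genes, and TCACGTGA in 5 (13.5%) against 1.41%. The 9 genes were Atp6v0b, Atp6v0d1, Atp6v0e, Atp6v1a, Ctsa, Ctsd, Ctsf, Ctsl and Lamp1. All 9 are among the 26 detected members with a window, and 0 of the 11 undetected ones held the letters. The shares among detected and undetected protein-coding genes were not computed. With 8.91% over all protein-coding genes, 11 genes are too few to read 0 as a difference.

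The matches in the stretch before the start are shown for 4 members that span the 3 families, on the strand of the gene, with CACGTG in capitals. Lamp1 held 4 matches between 61 and 15 bases before its start, at chr8:13159088-13159160 on the plus strand. Atp6v0b held 2 (chr4:117887330-117887377, minus strand). Those of Atp6v1a (chr16:44139373-44139402, minus strand) and Ctsd (chr7:142387908-142387937, minus strand) lie 131 and 98 bases before the RefSeq start, and both belong to the longer motif. Both lie inside the genes as annotated in M21, which reach chr16:44139705 and chr7:142388038. A second match in Ctsd, 245 bases before its RefSeq start and outside the M21 gene, is not shown. A match is a description of the letters and not a measured binding site.
Lamp1: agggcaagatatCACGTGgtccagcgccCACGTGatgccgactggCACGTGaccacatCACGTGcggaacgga
Atp6v0b: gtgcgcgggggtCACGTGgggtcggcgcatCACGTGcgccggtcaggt
Atp6v1a: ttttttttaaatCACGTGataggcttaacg
Ctsd: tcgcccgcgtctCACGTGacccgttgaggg

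The factors themselves were at modest levels. Tfe3 gave 16.6 TPM in pup 1 against 13.8 TPM in pup 3, above Tfeb (3.82 and 2.64 TPM), Mitf (1.52 and 1.08 TPM) and Tfec (0.26 and 0.22 TPM). In the list of 13 genes of lysosomal gene control, 12 were detected with a median of 30.7 ± 6.48 TPM over the 13. Its highest were 4 members of the Ragulator complex, which holds mTORC1 at the lysosome: Lamtor5 (155 and 181 TPM), Lamtor2 (154 and 160.2 TPM), Lamtor1 (145 and 163 TPM) and Lamtor3 (101 and 88.8 TPM).

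Other genes that work with the members give the level of the wider lysosome. All 14 listed genes of pump assembly and regulation were detected (median 28.0 ± 6.51 TPM), led by Rnasek (449 and 413 TPM), a small membrane protein bound to the pump, then Rogdi (107 and 85.1 TPM), Tmem199 (69.6 and 68.4 TPM) and Vma21 (58.1 and 45.7 TPM). Ncoa7, which binds the V1 sector, was the gene of that list over 2-fold apart, at 15.8 and 7.32 TPM. For the cathepsins the median was 11.2 ± 1.56 TPM over all 18 and 46.7 ± 1.48 TPM over the 12 detected. All 34 genes in the list of other lysosomal hydrolases were detected, with a median of 23.1 ± 3.33 TPM. Psap, the precursor of the saposins and itself no hydrolase, led that list at 214 and 182 TPM. It was followed by Lgmn (115 and 96.5 TPM), a protease that processes cathepsins, Smpd1 (82.9 and 70.6 TPM) and Gaa (90.1 and 63.5 TPM).

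All 17 genes of lysosomal membrane and transport proteins were detected too, with a median of 18.6 ± 1.52 TPM. Laptm4a (223 and 221 TPM) and Cd63 (156 and 133 TPM) led, then Mcoln1, a calcium channel (66.5 and 55.5 TPM), and Npc2, a cholesterol carrier (53.1 and 44.6 TPM). Lamp1 was above each of them in both pups, and Lamp2 below the first 3. The 13 genes of sorting to lysosomes had a median of 17.6 ± 4.98 TPM and were led by Vps35 (139 and 120 TPM), Gnptg (98.0 and 95.8 TPM), Ap3d1 (72.4 and 50.8 TPM) and Gga1 (46.1 and 43.5 TPM).

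Of 10 listed cathepsin inhibitors 7 were detected. Cst3, the secreted cystatin C, stood at 936 and 944 TPM, above each cathepsin. Cstb, a cytosolic inhibitor, stood at 121 and 151 TPM, near Ctsl, and Serpinb6a (41.8 and 38.2 TPM) and Ctla2a (27.0 and 28.9 TPM) followed. Transcript levels of an inhibitor and its targets were set side by side here, and protein was not measured.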

How the data were processed

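The authors deposited gene and transcript tables per library on mm10 with GENCODE M21 and M4, per the notes deposited with the files. The expected counts, as deposited by the authors and named in the file headers, are estimated reads per feature. How multi-mapping reads were handled is not stated in those headers. The TPM and FPKM values were computed by the authors from those counts and effective lengths, as deposited. The deposited percent column, made by the authors, gives each transcript's share of its gene's TPM. No aligner, quantifier or strand setting is given in the sources used here. Libraries were tagmented (Nextera), per the labels.

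Gene TPM from M21 was used, with 1 TPM added before log2 ratios. Genes were called detected at 1 TPM in both pups, and fold counts used genes at 5 TPM in either. The 2 pups form 1 group, so no test was run. Expected counts were rounded for the scaling alternatives (edgeR 4.0.16 TMM, DESeq2 1.42.0 size factors, R 4.3.3). Code (Python 3.11.15, pandas 2.3.3, Biopython 1.88) was tested on simulated data. The naming rule uses no measured value, but the members, lists and comparisons were chosen with earlier results of these data known. Every member is accounted for, and of each list the 4 highest genes, any over 2-fold apart and its near-0 defining markers are named. 1 list gene is not reported here. Acp5, Calcr, Mmp9, Slc26a7, Tfe3, Tfeb, Mitf and Tfec were chosen after their values were seen. Protein sequences were not used here.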

Additional observations from a re-analysis of the deposited data

How the results depend on the processing

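The number of members detected stayed between 32 (minimum of 5 TPM) and 35 under every alternative run. Leaving out either pup gave 35 members, 4 subunits led by 1 gene, and medians of 110.4 to 134 TPM for the pump, 10.1 to 12.3 TPM for cathepsins and 25.6 to 28.0 TPM for LAMPs. On the FPKM scale the 3 medians were 77.0, 7.51 and 18.0. Over members with a mean TPM of at least 1 they were 185, 46.7 and 49.5 TPM. Subunits led by 1 gene numbered 5 with M4 tables, expected counts, coding transcripts alone or a level of 80%, and 4 otherwise. No member was over 2-fold apart under any setting run, and 3 were over 1.5-fold apart with TMM scaling and 1 on coding transcripts (both chosen after seeing the data). The median difference relative to all genes became -0.014 when members and genes with any count were both included: the median of members was then -0.14 and that of all genes -0.13. Coding transcripts alone (chosen after seeing the data) moved 13 of 48 member levels by more than the SD between pups, the M4 annotation moved 11 and posterior mean TPM 13. Of the 35 log2 ratios between the pups, TMM scaling moved 35 by 0.1 or more, coding transcripts 6, M4 4 and posterior mean TPM 0. No paired analysis was possible because there is 1 group. With 2 pups the SD has 1 degree of freedom, and a single pup can set any value.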
